A study of Homo sapiens with 36 samples.

Results

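MYC and its neighbour PVT1 lie in a stretch of human chromosome 8 that was taken here as 3 Mb of the hg19 build, chr8:127500000-130500000, with MYC at chr8:128748315-128753680. The members were all CTCF peaks overlapping that stretch in 6 peak lists, and they merged into 34 regions of 54382 regions over all chromosomes. The lists came from chromatin immunoprecipitation and sequencing of CTCF in HEK293T cells, an established line from human embryonic kidney. Each list stands for 1 transfection: siNC, the control small interfering RNA, or siCHD3, siCHD4, siCHD5, siMBD2 or siMBD3, each named for its target, a subunit of the NuRD chromatin remodelling complex. There were 3 CTCF immunoprecipitates and 3 inputs per transfection, 36 samples in all. The authors pooled the 3 replicates before calling peaks, so no value below has a spread between replicates and no test between transfections was made. How far each target was depleted was not analysed here.

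CTCF is a zinc-finger protein that binds DNA at insulators and at the anchors of chromatin loops, where it halts the cohesin ring. MYC encodes a transcription factor that drives growth and proliferation, and it sits in a gene-poor neighbourhood where much of its control comes from distant enhancers on both sides. CTCF sites close to its promoter are known as docking points for such enhancers, and PVT1, a long noncoding RNA gene beside MYC, has a promoter and enhancers of its own in the same neighbourhood. NuRD joins a nucleosome-moving helicase (CHD3, CHD4 or CHD5) to histone deacetylases, and MBD2 or MBD3 is the methyl-CpG-binding-domain subunit.

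Of 17 genes listed for the neighbourhood, 16 were found in RefSeq's gene table, which is on another build (GRCh38.p14) and was used only for gene order. Along the strand of MYC the order was LRATD2, the noncoding RNA genes PCAT1, PRNCR1, CCAT1 and CASC8, then POU5F1B, CASC11, MYC, PVT1, the microRNA genes MIR1204, MIR1205, MIR1206, MIR1207 and MIR1208, CCDC26 and GSDMC. The table had 0 genes between MYC and PVT1. No annotation of hg19 was used, so which peaks lie inside PVT1 or in an exon was not analysed here. Positions are given by the distance of the summit, the highest point of a peak, from the MYC start.

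The 6 lists held 25358 to 36270 peaks. Fold enrichment is the authors' ratio of the summit's fragment pileup to local background, taken here with 1 added to each. The q-values are also theirs. The added 1 lowers fold more where the background is low, so folds of lists of different depth are not on the same scale. Pileup and background were solved from the deposited fold and p, and the lowest background in a list, which scales with its depth, was 2.96 fragments for siNC, 1.95 for siCHD5 and 1.06 for siCHD4. For siMBD2 it was 0.64, for siCHD3 0.445 and for siMBD3 0.374. The siNC list was thus the deepest, and siCHD3 and siMBD3 the shallowest, at 0.15 and 0.126 of it. Reads of libraries amplified by PCR without molecular identifiers are not independent molecules, so the 95% intervals below cover counting error only.

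In siNC the stretch held 23 peaks. The siCHD3 list had 19, siCHD4 16, siCHD5 20, siMBD2 15 and siMBD3 14. As the lists differed in length, the share of each in the stretch was also taken. In the same order the shares were 0.0634, 0.0554, 0.0631, 0.0636, 0.0575 and 0.0542% of all peaks of the list. Upstream of the MYC start, over 1.25 Mb, the lists had 15, 11, 13, 14, 12 and 10 peaks in the same order. From the MYC start on, over 1.75 Mb that begin with MYC and the PVT1 side, they had 8, 8, 3, 6, 3 and 4. Each list had more peaks on the shorter, upstream side. In siCHD3, where the 2 counts were closest, 3 of the 8 peaks from the MYC start on lay inside MYC. Of the merged regions, 20 lay upstream (16 per Mb) and 14 from the MYC start on (7.99 per Mb).

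**Figure D1:**
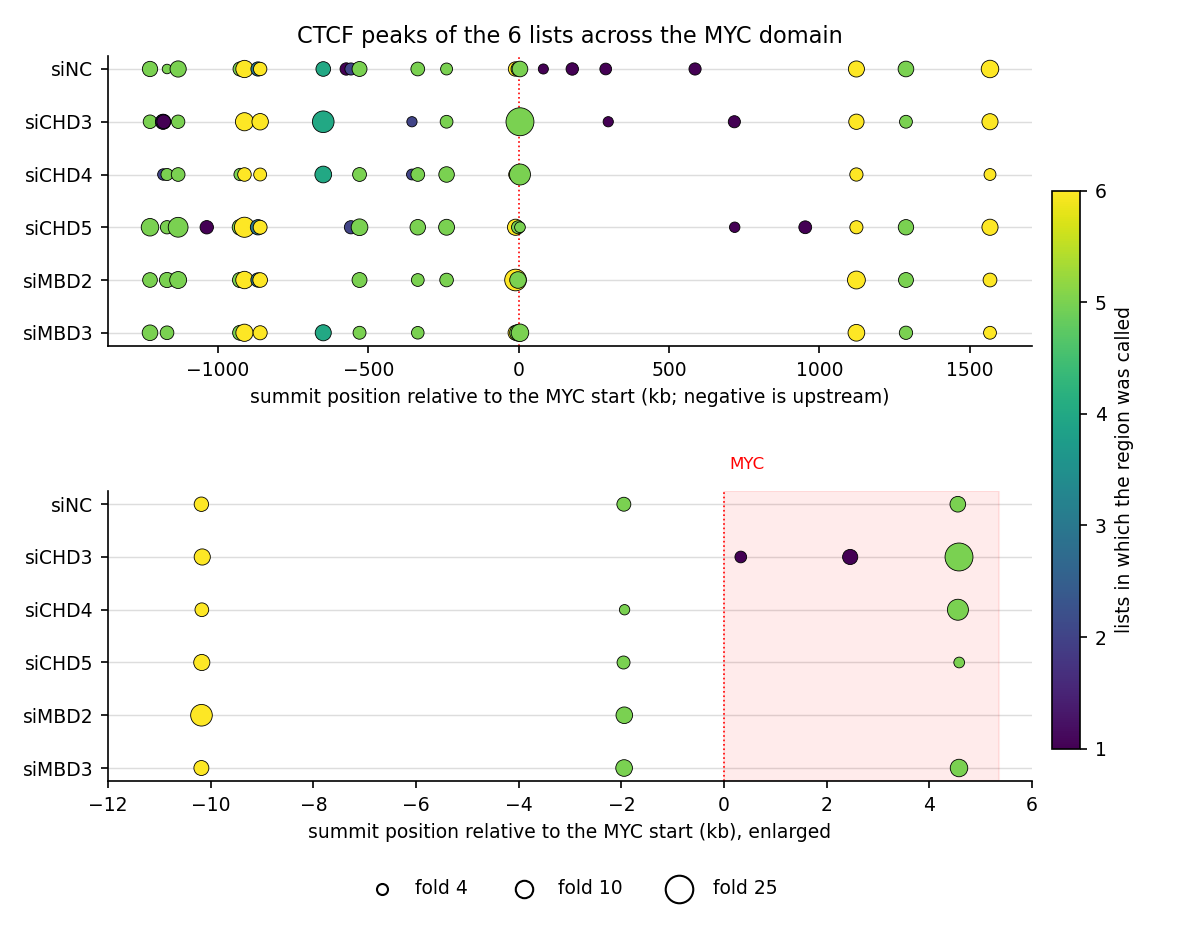
Each point is a peak summit of 1 of the 6 lists, by distance from the MYC start in kb (horizontal axis; lower panel enlarged around MYC), 1 row per list, coloured by the number of lists that called the region. Upstream regions were mostly shared between lists, while the 8 regions between 82.3 and 953 kb downstream were each called in 1 list. Regions called in 1 list were 41.2% of the stretch and 31.6% of all regions.

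Around MYC, 3 CTCF sites were shared by 5 or 6 lists. They lay 10.2 kb upstream of the MYC start (chr8:128737952-128738455), 1.95 kb upstream (chr8:128746158-128746507) and 4.55 kb downstream of it, inside the gene near its 3′ end (chr8:128752638-128753202). The next region upstream lay 239 kb from the MYC start and was called in 5 lists, all but siMBD3, with folds from 4.69 in siNC to 8.33 in siCHD5.

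The site 10.2 kb upstream was called in all 6 lists. Its fold enrichment was 6.84 in siNC, 8.60 in siCHD3, 6.19 in siCHD4, 8.58 in siCHD5, 7.37 in siMBD3 and 15.4 in siMBD2. The siMBD2 value stood apart from the other 5, which lay between 6.19 and 8.60. Within its own list the siMBD2 peak ranked at number 90 of 26087 by fold, while the same site ranked between the top 19.8% and the top 37.4% of the other lists. To set lists of different depth side by side, each pileup was divided by the list's median pileup at regions called in all 6 lists. On that scale the site had 0.851 in siNC, 0.957 in siCHD3, 1.11 in siCHD4, 1.29 in siCHD5, 0.952 in siMBD3 and 1.75 in siMBD2, so siMBD2 was again the highest.

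The site 1.95 kb upstream was called in every list but siCHD3. Fold enrichment there was 6.40 in siNC, 3.54 in siCHD4, 5.56 in siCHD5, 9.13 in siMBD3 and 9.07 in siMBD2. It was lowest in siCHD4, where it ranked at 91.9% of the list. Its siNC pileup was 85 fragments, nearly that of the site 10.2 kb upstream (86 fragments), and the ratio of both within siNC was 0.988 (exact 95% interval 0.724 to 1.35). In siCHD4 the ratio was 0.561 (0.321 to 0.957), in siCHD5 0.644 (0.455 to 0.906) and in siMBD2 0.592 (0.361 to 0.956). In siMBD3 it was 1.10 (0.573 to 2.12). The intervals of siCHD4, siCHD5 and siMBD2 thus lay below 1, and each overlapped that of siNC. The divisor was the pileup 10.2 kb upstream. Scaled by the list's median as above, it was higher for siCHD4 (1.11), siCHD5 (1.29) and siMBD2 (1.75) than for siNC (0.851). On that scale the site 1.95 kb upstream stood at 0.842 for siNC and 0.829 for siCHD5. It was higher for siMBD2 (1.04) and siMBD3 (1.05) and lowest for siCHD4 (0.622). The ratios of siCHD5 and siMBD2 thus do not by themselves show less pileup at this site. If the siNC pileup is thinned to the depth of the siCHD3 list, the chance of a call at this site was 95.3%, and no peak was called there in siCHD3.

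The site inside MYC had the widest range of folds in the stretch. Fold enrichment was 8.07 in siNC, 25.7 in siCHD3, 14.5 in siCHD4, 3.8 in siCHD5 and 10.1 in siMBD3, and siMBD2 had no peak. The summit pileups behind these were 73, 61, 41, 19 and 19 fragments. As the siCHD3 list had 0.15 of the siNC depth, its 61 fragments were 2.65 of that list's median at shared regions, against 0.723 in siNC, 1.11 in siCHD4, 0.271 in siCHD5 and 0.905 in siMBD3. The peak ranked at number 836 of 34319 in siCHD3 and at number 29423 of 31451 in siCHD5. Thinned to the siMBD2 depth, the siNC pileup had a 99.4% chance of a call, and none was made. That chance is a description only, as it assumes no other difference between the libraries.

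Comparison with the site 10.2 kb upstream used only counts of the same list. The site inside MYC had 0.849 of that site's pileup in siNC (0.613 to 1.17), 2.77 in siCHD3 (1.68 to 4.74), 1.00 in siCHD4 (0.633 to 1.58), 0.211 in siCHD5 (0.121 to 0.349) and 0.95 in siMBD3 (0.48 to 1.88). The siCHD3 and siCHD5 intervals overlapped neither each other nor that of siNC, in opposite directions. Spread between replicates cannot be seen in a pooled list, so whether 1 replicate set these ratios was not tested.

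**Figure D2:**
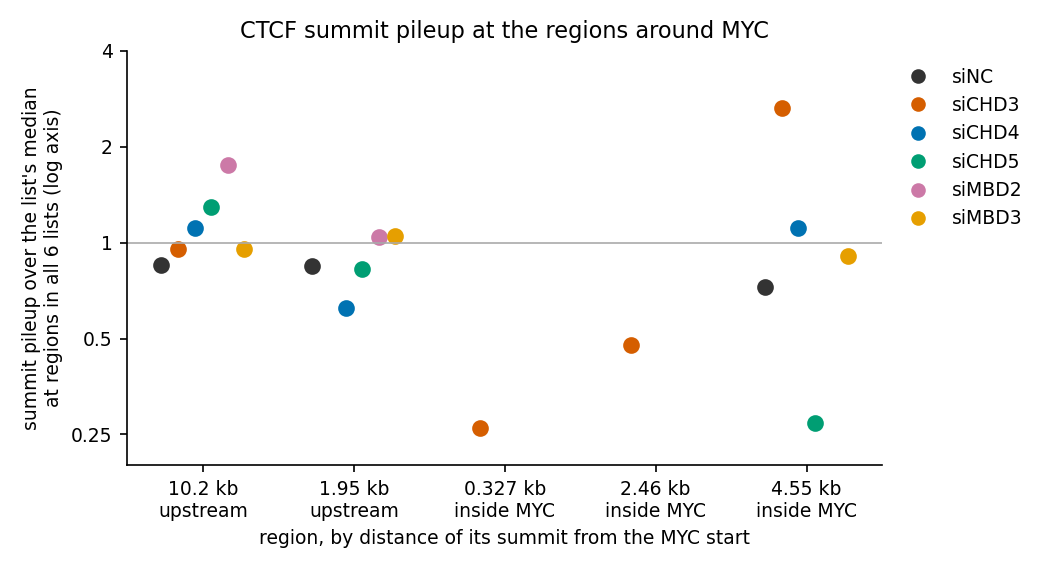
Summit pileup over the list's median at regions called in all 6 lists (log axis) at each region near MYC, by distance from the MYC start, 1 marker per list. At the site 4.55 kb inside MYC the lists ran from 0.271 (siCHD5) to 2.65 (siCHD3), and at the site 10.2 kb upstream from 0.851 (siNC) to 1.75 (siMBD2).

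The highest relative pileup over the lowest was 9.77 at the site inside MYC. It was 2.06 at the site 10.2 kb upstream, and the median over the 15 regions of the stretch called in 5 or 6 lists was 1.65. Over all chromosomes the median was 1.56 for 19107 such regions, and 466 of them (2.44%) had a ratio of at least 9.77. The ratio was chosen as a measure after the values at this site had been seen.

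Inside MYC the siCHD3 list had 2 further peaks that no other list had. The first lay 0.327 kb past the MYC start (chr8:128748481-128748685), with a fold of 4.52 and a pileup of 6 fragments. The second lay 2.46 kb past it (chr8:128750531-128751043), with a fold of 7.58 and 11 fragments. With the site near the 3′ end they made 3 siCHD3 peaks within the 5366 bp of MYC. A second group of 3 siCHD3 peaks lay 1.18 Mb upstream (chr8:127565272-127565713, chr8:127566243-127567244 and chr8:127568064-127568414), with folds of 7.38, 7.35 and 6.23. Of these only the middle one was called in another list, siCHD4, with a fold of 4.31. Whether the peaks of either group, the site near the 3′ end among them, lie on exons was not analysed here. The first 2 peaks of the upstream group were 529 bp apart, the closest pair of regions in the stretch.

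Runs of this kind, 3 or more peaks each within 5 kb of the next, held 6 of the 19 siCHD3 peaks of the stretch and 0 of the peaks of the other lists. Over all chromosomes runs held 10.3% of siCHD3 peaks, 6.36% of siCHD4 peaks and 5.28% of siNC peaks. The other shares were 3.97% (siMBD3), 3.88% (siCHD5) and 3.25% (siMBD2). Among siCHD3 peaks with no siNC partner 17.2% were in runs, against 7.05% of those with one. In the stretch, 5 of the 8 siCHD3 peaks without a siNC partner were in runs. The definition of a run was made after these peaks had been seen.

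Only 5 regions were called in all 6 lists, 14.7% of 34 (4.95 to 31.1%) against 21.7% over all chromosomes. They lay 912 kb and 859 kb upstream of the MYC start, 10.2 kb upstream, and 1.12 Mb and 1.57 Mb downstream. At the first (chr8:127836574-127837141) the fold was 9.86 in siNC, 10.8 in siCHD3, 6.05 in siCHD4, 13.3 in siCHD5, 9.77 in siMBD3 and 9.99 in siMBD2. The second (chr8:127888818-127889221) had 5.91 in siNC, 8.90, 5.49, 6.35, 6.55 and 7.03 in the same order. At both, siCHD4 had the lowest fold of the 6 lists, and its median fold over all its peaks, 5.04, was also the lowest. By pileup over the list's median at shared regions, the first site was lowest in siNC (0.515, against 0.73 in siCHD4). The second was lowest in siCHD4 (0.541).

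The pair downstream flanks the far side of the stretch, past the PVT1 side of MYC. At 1.12 Mb (chr8:129871389-129871799) the fold was 8.50 in siNC, 7.70 in siCHD3, 5.78 in siCHD4, 5.67 in siCHD5, 9.19 in siMBD3 and 10.5 in siMBD2. At 1.57 Mb (chr8:130315621-130315963) it was 10.1 in siNC, the highest siNC fold of the stretch, and 8.54 in siCHD3, 4.64 in siCHD4, 8.58 in siCHD5, 5.43 in siMBD3 and 6.26 in siMBD2. All 5 knockdown lists were below siNC at that last site. By pileup over the list's median at shared regions siNC had 0.554, and the others ran from 0.351 (siCHD4) to 0.522 (siCHD3). A site with the highest siNC fold is likely to be lower elsewhere, so this is a description only.

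A further 10 regions (29.4%, against 13.4% over all chromosomes) were called in 5 lists, and in each of them siNC was among the 5. The missing list was siCHD3 at 5 of them, siCHD4 at 2, siMBD3 at 2 and siMBD2 at 1. The siCHD3 cases were the site 1.95 kb upstream and those 335 kb, 529 kb, 926 kb and 1.17 Mb upstream, with siNC folds of 6.40, 6.22, 7.33, 6.61 and 2.99. Regions called in all lists except siCHD3 were 14.7% of the stretch (4.95 to 31.1%) and 3.26% of all regions. The chance of a siCHD3 call at its depth was 95.3, 68.7, 62, 84.2 and 16.3% at these 5 sites, which is a description only, since they were picked by their absence from siCHD3.

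Where several lists called a region, they placed its summit alike. In the 20 regions called in at least 2 lists, the summits of the lists spanned 8 to 85 bp, with a median of 25 bp. Merging required peaks to overlap, which itself limits how far apart their summits can lie.

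Between the site at the 3′ end of MYC and the one 1.12 Mb downstream, 8 consecutive regions were each called in 1 list only, 4 in siNC, 2 in siCHD3 and 2 in siCHD5. In the whole stretch 14 of 34 regions were called in 1 list (41.2%, 24.6 to 59.3%). That interval included the 31.6% over all chromosomes. Of the 8, the siNC peaks lay 82.3, 178, 290 and 587 kb from the MYC start, with folds of 3.35, 5.09, 4.54 and 4.89. The siCHD3 peaks at 298 and 717 kb had folds of 3.46 and 4.85, and the siCHD5 peaks at 719 and 953 kb 3.61 and 5.42. Apart from these, no CTCF peak of any list was called over that interval, which was singled out after its peaks had been seen. The longest space without a peak of any list, 288 kb, lay there, between the peaks at 298 and 587 kb. Longest spaces within 1 list were 1118 kb in siCHD4 and in siMBD3, 1125 kb in siMBD2, 714 kb in siCHD5, 536 kb in siNC and 419 kb in siCHD3.

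The 5 siNC peaks with no partner in any knockdown were these 4 and 1 that lay 573 kb upstream, with a fold of 5.05. They were 21.7% of the 23 siNC peaks, against 7.95% of all siNC peaks. Counted as merged regions they were 14.7% of 34 (4.95 to 31.1%), an interval that included the 5.3% over all chromosomes. These peaks had summit pileups of 17 to 33 fragments, where the 15 siNC peaks with a partner in 4 or 5 knockdown lists had 31 to 86. No region of the stretch was called in all 5 knockdown lists without siNC. The share of such regions over all chromosomes is not given here, so that count is a description only.

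**Figure D3:**
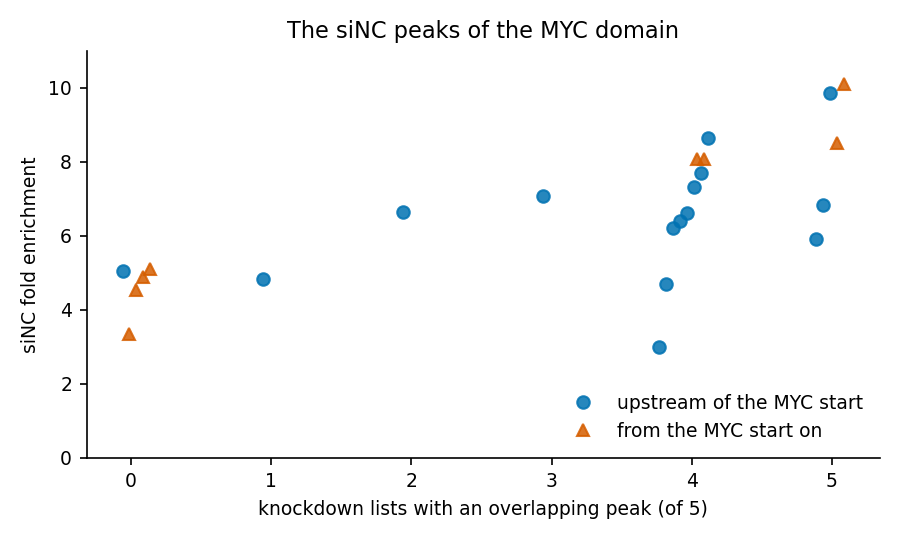
Each point is 1 of the 23 siNC peaks, by the number of knockdown lists with an overlapping peak (horizontal axis, of 5) and its fold enrichment in siNC (vertical axis), with upstream peaks and those from the MYC start on marked apart. The 5 peaks without a partner had folds of 3.35 to 5.09, and the 5 with a partner in every knockdown list 5.91 to 10.1.

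The 5 strongest siNC peaks all had a partner in at least 4 knockdown lists. They lay 1.57 Mb downstream (fold 10.1), 912 kb upstream (9.86), 1.13 Mb upstream (8.64), 1.12 Mb downstream (8.50) and 1.29 Mb downstream (8.08). The third had no siMBD3 peak and the last no siCHD4 peak.

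With siCHD3, 12 of the 23 siNC peaks had no overlapping peak (52.2%, 30.6 to 73.2%), against 35.4% of all siNC peaks. The strongest were 529 kb (siNC fold 7.33), 867 kb (6.65) and 926 kb (6.61) upstream. Of its own 19 peaks, 8 had no siNC partner (42.1%, 20.3 to 66.5%), against 32.6% over all chromosomes, led by the second peak inside MYC (7.58) and those of the run 1.18 Mb upstream (7.38 and 7.35). Both intervals included the share over all chromosomes.

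With siCHD4, 9 siNC peaks had no partner (39.1%, 19.7 to 61.5%), against 41.5% of all siNC peaks. The strongest lay 1.29 Mb downstream (8.08), 1.23 Mb upstream (7.71) and 867 kb upstream (6.65). At the first of these a call had a 98.6% chance if siNC is thinned to siCHD4, a description only, since the site was picked by its absence from siCHD4. Only 2 of 16 siCHD4 peaks had no siNC partner (12.5%, 1.55 to 38.3%), against 16.8%, with folds of 4.31 and 3.88 at 1.18 Mb and 355 kb upstream, and siCHD3 had both as well.

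With siCHD5, 6 siNC peaks had no partner (26.1%, 10.2 to 48.4%), against 21.5% of all siNC peaks. Apart from the 5 peaks seen in siNC alone, this was the site 649 kb upstream (chr8:128098567-128099099), whose fold was 7.07 in siNC, 15.4 in siCHD3, 9.22 in siCHD4 and 8.51 in siMBD3. It was also absent from siMBD2, where the chance of a call at its depth was 72.4%, again a description only, since the site was named for its absence. In siCHD5, 3 of 20 peaks had no siNC partner (15%, 3.21 to 37.9%), against 9.41%, with folds of 5.91, 5.42 and 3.61.

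With siMBD2, 8 siNC peaks had no partner (34.8%, 16.4 to 57.3%), against 34.9% of all siNC peaks, led by the site inside MYC (8.07) and the one 649 kb upstream (7.07). All 15 siMBD2 peaks overlapped a siNC peak. A count of 0 in 15 allows a share of up to 20% when 3 peaks are taken as its limit (21.8% by the exact interval), and over all chromosomes 9.30% of siMBD2 peaks had no siNC partner.

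With siMBD3, 9 siNC peaks had no partner (39.1%, 19.7 to 61.5%), against 38.5% of all siNC peaks, led by those 1.13 Mb (8.64) and 867 kb (6.65) upstream. All 14 siMBD3 peaks overlapped a siNC peak, which by the same limits allows a share without a partner of up to 21.4% (23.2% by the exact interval), against 13.4% over all chromosomes. For every knockdown, then, both shares in the stretch could not be told from those over all chromosomes at these peak numbers.

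**Figure D4:**
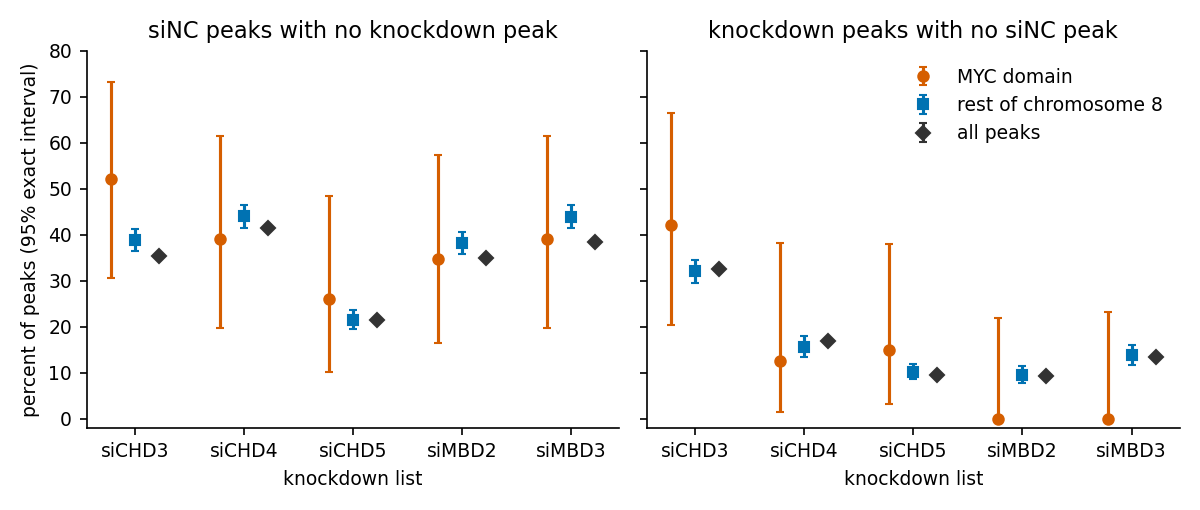
Percent of siNC peaks with no overlapping knockdown peak (left) and of knockdown peaks with no overlapping siNC peak (right) in each of the 5 knockdown lists, in the stretch (with exact 95% intervals), over the rest of chromosome 8 and over all chromosomes. Every interval in the stretch included the share over all chromosomes.

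Lower depth lowers the chance of a call. Thinning each siNC peak to the depth of the other list gave an expected number without a call of 8.16 for siCHD3 (12 observed), 2.5 for siCHD4 (9 observed), 0.266 for siCHD5 (6 observed), 5.77 for siMBD2 (8 observed) and 10.3 for siMBD3 (9 observed). Over all chromosomes the expected and observed shares were 33.1 and 35.4% for siCHD3, 12.2 and 41.5% for siCHD4, 3.05 and 21.5% for siCHD5, 24.2 and 34.9% for siMBD2, and 41.6 and 38.5% for siMBD3. Observed numbers exceeded expected ones for every knockdown but siMBD3, in the stretch as over all chromosomes. The expected numbers took depth from the lowest background alone. Median pileup at regions called in all 6 lists was 101 fragments in siNC, 23 in siCHD3, 28 in siMBD2 and 21 in siMBD3, a smaller fall than that of the background. In siCHD4 (37 fragments) and siCHD5 (70) the fall was close to that of the background, which was 0.358 and 0.66 of siNC. The siNC peaks had also been picked by passing the siNC threshold. Whether depth set the numbers without a call was therefore not tested.

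The siNC peaks without a partner were counted on each side of the MYC start, with no test of the difference. Upstream, of 15 siNC peaks, 8 had none in siCHD3, 4 in siCHD4, 2 in siCHD5, 5 in siMBD3 and 3 in siMBD2. From the MYC start on, of 8 siNC peaks, the counts were 4, 5, 4, 4 and 5 in the same order, and the 4 weak peaks seen in siNC alone were in each of them.

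The stretch was poor in CTCF peaks for chromosome 8. When the chromosome was divided into 48 windows of 3 Mb, of which the stretch was 1, the median window held 35.5 siNC peaks, with a range of 9 to 59, and 35 windows held more than the 23 of the stretch. For the knockdowns the median window held 30.5 siCHD3 peaks (19 in the stretch), 22 siCHD4 peaks (16), 31 siCHD5 peaks (20), 23.5 siMBD2 peaks (15) and 22 siMBD3 peaks (14), so each list was below its median there. The median fold of the peaks it did hold was higher than over all peaks in each list. In siNC it was 6.61, against 5.22 for all siNC peaks. For siCHD3 the values were 7.35 and 6.23, for siCHD4 5.91 and 5.04, and for siCHD5 7.76 and 6.54. The siMBD2 list had 7.32 and 6.62, and siMBD3 7.36 and 6.71. Median pileup in siNC was lower than over all peaks, 45 against 59 fragments, and so was the local background, at 2.16 against 3.48 of the list's lowest value, so the higher fold went with a lower background.

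**Figure D5:**
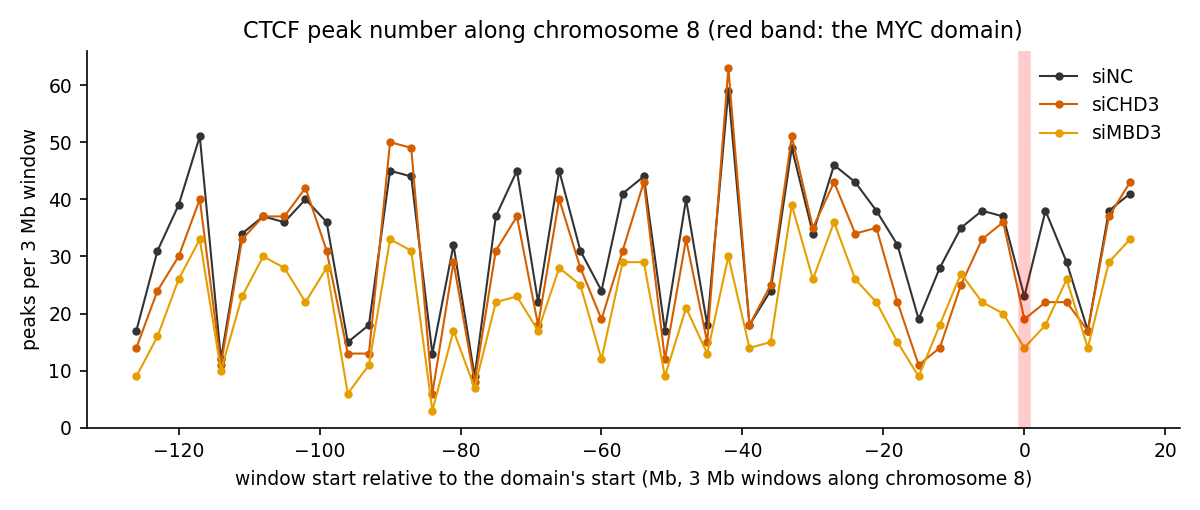
CTCF peaks per 3 Mb window along chromosome 8 in siNC, siCHD3 and siMBD3 (vertical axis), by the start of the window relative to that of the MYC stretch in Mb (horizontal axis), with the stretch in a red band. It held 23 siNC peaks, below the median window of 35.5, and was below the median in each of the other lists, drawn or not.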

How the data were processed

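For each of 6 transfections the authors deposited 1 list of CTCF peaks (MACS2 narrow-peak layout) that pools 3 replicates. Fold enrichment is the authors' ratio over local background. Significance is deposited as −log10 of p and −log10 of q, and the summit as an offset. The build was hg19 and the tools were MACS2 2.1.2, Bowtie2 2.3.4, deepTools 3.5.0, bedtools 2.25.0, SAMtools 1.9 and FastQC 0.11.7, per the submitters' processing notes. Their roles, settings, filters and the peak threshold are not given in the sources used here. In the authors' deposited table for siCHD5 the smallest −log10 q was 1.31, and in each of the others 1.30. Reads of single replicates were not used here, and the lists hold no expression values, so cell identity was not checked.

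Lines with the same start and end were taken as 1 peak, and the summit with the most enrichment was kept. Peaks on 23 chromosomes (the autosomes and X) were used. Overlap required 1 bp, and peaks of the 6 lists that overlapped were merged into regions. Summit pileup and background were solved from the deposited fold, taken as pileup plus 1 over background plus 1, and from p as a Poisson upper tail. Of all peaks, 100% were matched within 0.01% in each list. Each siNC pileup was thinned binomially to a knockdown's depth, as the lowest background, to give the chance of a call, which assumes no other difference between libraries. Intervals are exact Clopper-Pearson ones at 95%. Overlap counting and the pileup solution were tested on simulated data. Computation used Python 3.11.15, numpy 2.4.6, scipy 1.17.1 and pandas 2.3.3.

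The members and gene list were chosen with earlier results of these data known. Named regions were those nearest MYC on each side or inside it, those in all 6 lists, the 5 siNC peaks of highest fold, the 3 strongest per knockdown without a partner in either direction, those in siNC alone, the longest space and the closest pair. Alternatives were stricter q, other overlap rules, lists of equal length, a wider merging distance, a narrower stretch and, chosen after seeing the data, weighting by the chance of a call, leaving out runs and leaving out the siCHD3 list.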

Additional observations from a re-analysis of the deposited data

How the results depend on the processing

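Of 96 alternative values, 86 moved by less than their counting interval and 10 by more. When every list was cut to its 25358 peaks of lowest p, the siNC peaks without a partner became 18.8% in siCHD4 (from 39.1%), 12.5% in siMBD2 (from 34.8%) and 18.8% in siMBD3 (from 39.1%), and, within their intervals, 31.2% in siCHD3 (from 52.2%) and 12.5% in siCHD5 (from 26.1%). With the stretch narrowed by 500 kb on each side they were 42.9% in siCHD5 and 57.1% in siMBD2, within their intervals. Where −log10 q had to reach 10 in both lists, they were 58.8% in siCHD4 and siMBD3 and 52.9% in siMBD2. Where only siNC peaks had to reach it, they were 23.5% in siCHD4 and siMBD3, 17.6% in siMBD2 and 11.8% in siCHD5. Weighted by the chance of a call, siMBD3 had 22.7%. Where −log10 q had to reach 10, in both lists or only in the list counted, siCHD3 peaks without a siNC partner fell to 0 of 7 (from 42.1%). For siCHD4 peaks they were 0 of 7 (from 12.5%) under both of these, and 0 of 13 where it had to reach 5 in both lists. For siCHD5 they were 0 of 15 (from 15%) where it had to reach 10 in the list counted only, and 6.67% where both lists had to or with lists of equal length. With so few peaks a count of 0 leaves a wide limit. Of siCHD3 peaks, 26.7% had no siNC partner with lists of equal length and 23.1% without runs. For siCHD4 the share was 18.8% with lists of equal length or 50% reciprocal overlap. The counts of 0 became 6.67% in siMBD2 under each of these last 2 and 11.1% where −log10 q had to reach 10 in both lists, and 7.14% in siMBD3 with lists of equal length. Without the siCHD3 list, an alternative chosen after seeing the data, 35.7% of regions were called in all other lists (from 14.7%). Leaving out a list can raise this share by construction, and its value over all chromosomes is not given here. Regions called in siCHD3 alone, which it removes, were 17.6% of the stretch (6.76 to 34.5%) and 14.7% of all regions. With all 6 lists, the share called in every list was 22.7% with lists of equal length and 9.52% in the narrowed stretch. Apart from the overlap rule and the weighting, these alternatives keep fewer peaks or lists by construction. No paired analysis was possible because the lists used here pool the 3 replicates of each transfection. At the depths of siCHD3 and siMBD3, the shallowest lists, siNC peaks with folds up to 5.09 had a modelled chance of a call of at most 57.2%, and at that of siCHD5 89.6 to 100%. Whether depth set which weak peaks were absent was not tested.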
